A study of Mus musculus with 4 samples.

Results

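Bone marrow progenitors taken after 6 days of RBPJ induction were set against progenitors taken after 3 days. The aim was to describe which transcripts differed later in induction while Rbpj itself stood at almost the same level over each whole library. The cells were those of the authors' deposited cell sets, without any cell that held 10 or more UMIs (unique molecular identifiers, counts of captured RNA molecules) in total of the other-lineage genes S100a8, S100a9, Hba-a1, Hbb-bs, Elane and Pf4. This left 1275 of 1292 cells at 3 days and 2094 of 2129 cells at 6 days, together 3369 of the 8883 cells of the series. The UMIs of each library were added up gene by gene and divided by its total, on the usual CPM scale, and the 7121 genes that reached 10 CPM at either time were compared.

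The study captured single-cell RNA in 10x Genomics droplets from lymphoid-primed multipotent progenitors (LMPPs), sorted by flow cytometry from bone marrow of C57BL/6 mice, as 1 library for each of 4 groups. Control mice kept RBPJ throughout, and RBPJ uninduced mice lacked it. The mice of the 3-day and 6-day groups were RBPJ-deficient mice in which doxycycline, by intraperitoneal injection of a 2 mg/ml solution followed by drinking water with 1 mg/ml, switched RBPJ expression on. The labels repeat this treatment for every library, so whether control and uninduced mice were treated was not clear from them, and they do not state the promoter of the inducible RBPJ, the number of mice pooled per library, or their age. With 1 library per group no difference below has a replicate check, no test was made, and library preparation, mice and days of induction cannot be told apart. Intervals after levels, folds and shares are at 95% and cover counting error only.

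RBPJ is the DNA-binding protein of the Notch pathway. When a Notch receptor is activated, its intracellular domain joins RBPJ on DNA and target genes such as Hes1 are transcribed, and in its absence RBPJ can sit with co-repressors and hold such genes down. In the bone marrow and thymus, Notch signalling is known for directing lymphoid progenitors to the T lineage, and LMPPs are the early progenitors, marked by Flt3, Kit and Cd34, that retain lymphoid and myeloid potential while losing the potential for platelets and red cells.

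Promoter sequences are shown for 4 heat shock genes, all among the 15 lowest ratios, and for the Notch pathway genes Lfng and Hes5. Lfng rose, while Hes5 was below the minimum level of 10 CPM and not compared. All of these genes were chosen after the search because they hold the motif of their known regulator, and genes searched without a match are named after them. Each is the 250 bases upstream of the start site in RefSeq (GRCm38.p6), read 5′ to 3′ on the gene's strand. For the heat shock genes, Hspa1a (chr17:34972157-34972406, minus strand), Hspa1b (chr17:34959239-34959488, minus strand), Hspb1 (chr5:135887669-135887918, plus strand) and Hsph1 (chr5:149636337-149636586, minus strand), capitals mark GAANNTTC or TTCNNGAA, the inverted repeats bound by heat shock factor. For Lfng (chr5:140607091-140607340, plus strand) and Hes5 (chr4:154960673-154960922, plus strand), capitals mark TGGGAA on either strand, the core bound by RBPJ.
Hspa1a: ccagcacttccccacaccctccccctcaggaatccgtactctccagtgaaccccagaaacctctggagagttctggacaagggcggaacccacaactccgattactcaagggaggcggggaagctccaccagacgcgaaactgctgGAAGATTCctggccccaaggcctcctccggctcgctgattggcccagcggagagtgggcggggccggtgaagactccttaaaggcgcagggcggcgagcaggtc
Hspa1b: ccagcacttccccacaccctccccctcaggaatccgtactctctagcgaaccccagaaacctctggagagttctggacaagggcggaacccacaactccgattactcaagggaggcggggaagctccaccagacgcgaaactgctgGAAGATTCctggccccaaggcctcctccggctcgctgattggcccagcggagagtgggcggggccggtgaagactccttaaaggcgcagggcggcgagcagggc
Hspb1: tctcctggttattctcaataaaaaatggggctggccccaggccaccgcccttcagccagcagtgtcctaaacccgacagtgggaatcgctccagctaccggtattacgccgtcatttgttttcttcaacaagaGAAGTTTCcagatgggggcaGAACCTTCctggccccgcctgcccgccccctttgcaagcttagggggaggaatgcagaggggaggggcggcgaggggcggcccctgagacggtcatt
Hsph1: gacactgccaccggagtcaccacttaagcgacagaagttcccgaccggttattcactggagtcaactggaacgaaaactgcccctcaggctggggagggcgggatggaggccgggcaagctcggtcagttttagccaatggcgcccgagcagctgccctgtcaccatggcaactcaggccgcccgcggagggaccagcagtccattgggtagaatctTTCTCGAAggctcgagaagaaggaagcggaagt
Lfng: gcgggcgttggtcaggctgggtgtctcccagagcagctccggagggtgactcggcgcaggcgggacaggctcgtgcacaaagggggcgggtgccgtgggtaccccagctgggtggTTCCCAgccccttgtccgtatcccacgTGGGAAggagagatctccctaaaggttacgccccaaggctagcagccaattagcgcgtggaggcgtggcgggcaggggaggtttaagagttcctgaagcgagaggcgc
Hes5: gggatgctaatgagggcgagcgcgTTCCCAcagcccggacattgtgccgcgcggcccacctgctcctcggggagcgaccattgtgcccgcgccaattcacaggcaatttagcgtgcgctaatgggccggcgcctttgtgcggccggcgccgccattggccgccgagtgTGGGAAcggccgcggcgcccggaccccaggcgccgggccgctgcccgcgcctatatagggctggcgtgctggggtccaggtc
The upstream stretches of Hspa1a and Hspa1b, neighbouring copies of the inducible 70-kilodalton heat shock protein, shared 247 of 250 bases, and each had 1 match beginning at -104 from the start. Hspb1 had matches at -117 and -97 and Hsph1 at -33, while both entries of Dnajb1 had 0 matches. In the 250 bases before the start, searched on both strands and with 1 entry per gene, either heat shock motif was found in 4 of the 6 promoters found for the 8 heat shock genes that passed 1.5-fold, in 9.98% of the 5550 compared genes with an entry and in 12.9% of all 27025 promoters. Lfng had TGGGAA at -135 and -108, and Hes5 at -226 and -82, while Notch2, Il7r, Nrarp and Dennd5b, also searched, had 0 matches. Hes1 has no entry in the table. TGGGAA was found in 9 of 63 promoters of genes higher at 6 days (14.3%), in 11 of 37 of genes lower at 6 days (29.7%) in 19.5% of genes compared and in 21.5% of all promoters. Of the other motifs searched, TGANTCA (AP-1) was found in 4.76% of higher, 8.11% of lower and 3.73% of compared genes, the core of the interferon-stimulated response element in 6.35%, 8.11% and 2.74%, an NF-kB motif in 61.9%, 67.6% and 61.9%, and TGACGTCA (cAMP response element) in 3.17%, 2.7% and 3.15%. A match describes letters in the window and not a bound site.

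Both libraries carried the transcripts expected of LMPPs. Flt3, the cytokine receptor that defines them, stood at 210.4 CPM at 3 days and 204 CPM at 6 days, and Cd34 at 475 and 416 CPM. Kit, the stem cell factor receptor, was at 44.4 and 49.6 CPM, and Dntt, the template-free DNA polymerase of early lymphoid cells, at 841 and 856 CPM. The kept cells held 10499558 UMIs at 3 days and 17090136 at 6 days, with medians of 7655 and 7360.5 UMIs and 2197 and 2134 genes per cell, and 5 cell barcodes stood in both libraries. Xist, the non-coding RNA of the inactive X, stood at 1072 CPM at 3 days and 1761 CPM at 6 days, while the Y-linked Eif2s3y fell from 38.9 to 23.5 CPM and Ddx3y stood at 30.9 and 20.8 CPM. Transcripts of both sexes were therefore present in both libraries in unequal amounts, and the part of this in the differences below was not tested. Summed markers of other cell types moved both ways from 3 to 6 days. Erythroid genes were at 334 and 279 CPM, of which Car2 made up 264 and 208 CPM, mature neutrophil and monocyte genes at 354 and 284 CPM, and NK and innate lymphoid genes at 331 and 251 CPM, of which Ccl5 made up 72.3 and 22.9 CPM. Dendritic cell genes were at 1312 and 1326 CPM and genes of stroma and endothelium at 85.8 and 98.9 CPM, the latter with 5 and 8 of 18 members at 0.

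Rbpj (ENSMUSG00000039191; GRCm38 chr5:53466152-53657362, plus strand, protein coding) was at 17.8 CPM in control and 11.3 CPM in uninduced cells. At 3 days it reached 472 CPM (459 to 485), and the 6-day level of 474 CPM (464 to 485) was 1.01-fold that value (0.97 to 1.04). The induced libraries lay far above the other pair and did not differ from each other beyond counting error. With all cells brought to 4700 UMIs by random thinning, an Rbpj UMI was found in 42.3% of 3-day cells (39.3 to 45.3) and in 43.0% at 6 days (40.7 to 45.4), against 8.18% in control and 4.83% in uninduced cells. Thinning left out 201 cells at 3 days and 364 at 6 days that were shallower, and the unthinned shares were 43.9% and 45.3%. Positive thinned cells held a mean of 4.80 Rbpj UMIs at 3 days and 4.59 at 6 days. The uninduced cells, from mice that lacked RBPJ, give the nearest background share, the 4.83% above. What their Rbpj UMIs stem from was not tested. Barcodes of 10 to 100 UMIs, a measure of RNA outside cells, held Rbpj at 291 CPM in the 3-day and 285 CPM in the 6-day library.

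Rbpj was level in the summed libraries, while its ratio varied between clusters of cells, as given below. Beside it, 92 genes were at least 1.5-fold higher at 6 days (1.29% of those compared) and 45 at least 1.5-fold lower (0.632%). The scale was that of CPM plus 1. At 2-fold, 12 were higher (0.169%) and 13 lower (0.183%). Together the 137 genes were 1.92% of the genes compared. The fold interval of each excluded 1, which their choice by size from the same counts largely sets in advance. Genes far short of 1.5-fold can exclude 1 as well, such as B2m (0.907-fold, 0.894 to 0.920). The share of all genes compared whose interval excludes 1 was not counted. The median log2 ratio of all genes was -0.02, with 45.0% of genes above and 55.0% below 0. The higher genes outnumbered the lower ones, 67.15% of calls. After the 10 cells with most UMIs of each gene were left out of each library, 79.25% of calls were higher. That setting itself tends to raise ratios, because 10 cells are a larger part of 1275 than of 2094 cells and the totals were kept. Under it the median of all genes moved to 0.01. The largest shifts downward were larger than any upward: Hspa1a had a log2 ratio of -4.48, while Hes1, the highest, had 1.56.

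**Figure D1:**
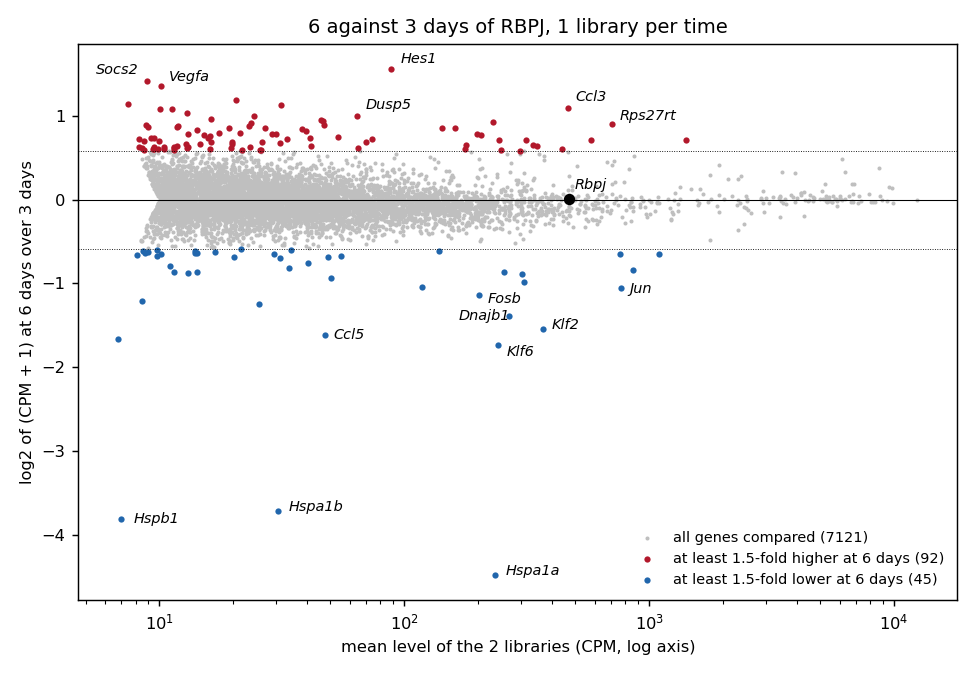
Each point is 1 of 7121 genes, with its mean CPM in the 3-day and 6-day libraries on a log axis and its log2 ratio of CPM plus 1 at 6 over 3 days. Dotted lines mark 1.5-fold; the 92 higher genes reach 1.56 (Hes1), the 45 lower genes reach -4.48 (Hspa1a), and Rbpj (black) lies at 0.01.

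Hes1 (ENSMUSG00000022528; GRCm38 chr16:30064384-30067796, plus strand), a transcriptional repressor and the standard target of Notch, was the gene with the highest ratio. It stood at 90.0 CPM in control, 18.2 CPM in uninduced, 44.1 CPM (40.2 to 48.3) in 3-day and 132 CPM (126 to 137) in 6-day cells, 2.99-fold higher at 6 than at 3 days (2.70 to 3.31). The 3-day library lay between uninduced and control, and the 6-day library lay above control. After thinning, a Hes1 UMI was found in 10.2% of 3-day cells (8.49 to 12.2) and in 25.7% at 6 days (23.7 to 27.8), against 18.3% in control and 6.04% in uninduced cells, where the gene is lowest; unthinned shares were 14.3%, 31%, 24.6% and 8.23%. Positive thinned cells held 1.89 Hes1 UMIs at 3 days and 2.61 at 6 days, so both the share and the level per positive cell were higher.

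Within the induced libraries Hes1 was higher in cells with few or no Rbpj UMIs than in cells with many. At 3 days it stood at 60.6 CPM (53.9 to 67.9) in the 715 cells with 0 Rbpj UMIs, 52.9 CPM (42.9 to 64.5) with 1 to 2, 17.4 CPM (11.9 to 24.5) with 3 to 9 and 19.3 CPM (13.6 to 26.6) with 10 or more. At 6 days the same classes stood at 165.7, 152, 99.2 and 60.4 CPM, with intervals of 157 to 175, 139 to 165, 87.9 to 112 and 52.3 to 69.4. In each class the 6-day level exceeded the 3-day level, and at both times Hes1 was lower in cells with 3 or more Rbpj UMIs than in cells with fewer. A cell with 0 UMIs may still express Rbpj below detection, and cells with more Rbpj UMIs are deeper: medians were 10799 and 10936 UMIs with 3 or more Rbpj UMIs and 7191 and 6966 in the cells without Rbpj of 4700 UMIs or more. These 2 kinds of cell also differed in cell cycle transcripts. At 3 days Top2a, a gene of G2 and mitosis, stood at 318 CPM with 3 or more Rbpj UMIs and at 191 CPM without. At 6 days it stood at 384 and 186 CPM. Hmgb2, of the same list, stood at 2158 and 1268 CPM at 3 days and at 2187 and 1107 CPM at 6 days. What sets the order of the classes was not tested.

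**Figure D2:**
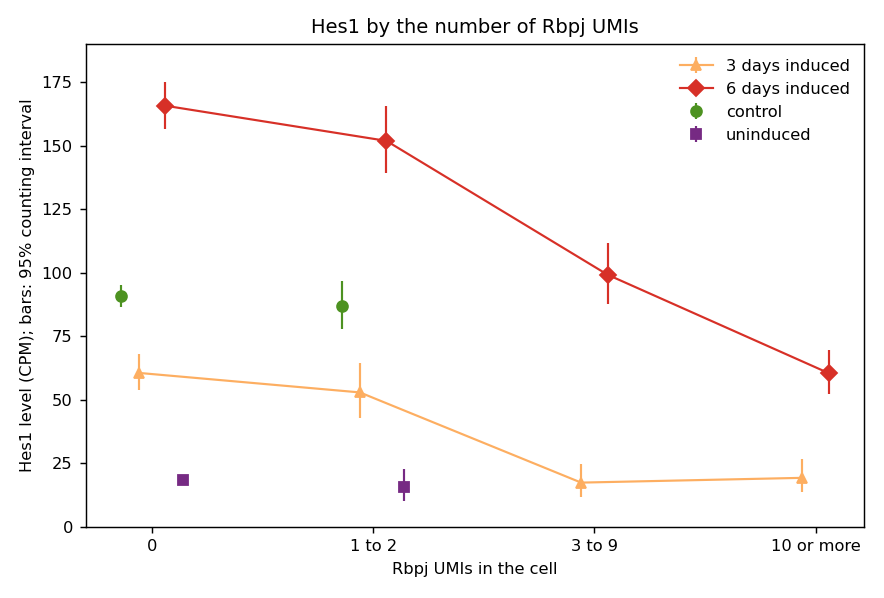
Hes1 level (CPM, with 95% counting intervals) in cells grouped by their number of Rbpj UMIs, at 3 and 6 days, with control and uninduced cells for the classes that hold enough cells. At 6 days Hes1 runs from 165.7 CPM without Rbpj UMIs to 60.4 CPM with 10 or more, at 3 days from 60.6 to 19.3 CPM.

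Other Notch target genes that could be compared moved less. Of 29 on the list, 11 were at 10 CPM or more, of which 2 were higher and 0 lower at 1.5-fold, with a median log2 ratio of 0.20 against -0.02 for all genes. The second was Cdkn1a, the cell cycle inhibitor p21, at 55.3 CPM at 3 days and 92.0 CPM at 6 days (1.66-fold, 1.51 to 1.83), with 90.1 CPM in control and 86.1 CPM in uninduced cells. Below the minimum level, and so not compared, were Hes5, Nrarp and Dtx1. Hes5, another repressor of the Hes family, was at 5.14 and 5.27 CPM (1.02-fold, 0.723 to 1.46). Its promoter above holds TGGGAA, as does that of Lfng. Nrarp, a feedback inhibitor of the Notch complex, was at 4.10 and 4.45 CPM (1.09-fold, 0.737 to 1.62), an interval that includes 1.5-fold. Dtx1, a ubiquitin ligase target, had 0 and 2 UMIs. Myc and Id2, which many cell types express, had log2 ratios of 0.09 and 0.58.

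Among receptors, ligands and modifiers of Notch, 16 of 27 could be compared, and 2 rose, 0 fell and the median was 0.11. Notch2, a receptor, was at 27.3 CPM in control, 31.6 CPM in uninduced, 18.9 CPM (16.3 to 21.7) in 3-day and 35.1 CPM (32.3 to 38) in 6-day cells, a 1.86-fold rise (1.58 to 2.19). Lfng, the glycosyltransferase that tunes receptors toward Delta ligands, rose from 12.2 to 20.3 CPM (1.67-fold, 1.36 to 2.06), with 21.4 CPM in control and 14.6 CPM in uninduced cells. The 3-day library was the lowest of the 4 for both genes. For Lfng its interval (10.2 to 14.5) overlapped that of uninduced cells (13.0 to 16.3). Notch1, the receptor of T lineage entry, was at 43.6 and 55.4 CPM, 1.27-fold apart (1.14 to 1.42) and short of 1.5-fold. In the nuclear complex and its co-repressors, 0 of 14 members passed in either direction; the median was 0.06, and the highest was Spen, a co-repressor that binds RBPJ, at 0.49.

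Genes of lymphoid priming were higher at 6 days in 4 of 21 cases and lower in 0, with a median of 0.18. Il7r, the interleukin-7 receptor needed by early lymphoid cells, stood at 27.5 CPM in control, 18.8 CPM in uninduced, 15.8 CPM (13.5 to 18.4) in 3-day and 32.7 CPM (30.1 to 35.5) in 6-day cells, 2.07-fold higher at 6 days (1.74 to 2.48). As with Hes1, the 6-day level was above control and the 3-day level below it. Ccr9, a homing receptor for the thymus and gut, rose from 10.0 to 18.5 CPM (1.85-fold, 1.48 to 2.34), and Ets1, a lymphoid transcription factor, from 15.3 to 24.0 CPM, with a ratio of 0.45, short of 1.5-fold, when every cell weighed the same. Ly6d, a surface protein that marks lymphoid progenitors inclined to the B lineage, rose from 12.2 to 29.1 CPM (2.39-fold, 1.96 to 2.92), but 10 cells held 83.6% of its UMIs at 3 days and 39.4% at 6 days, and the uninduced library stood near the 6-day level at 26.4 CPM.

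Of 7 B lineage genes compared, 3 rose and 0 fell, with a median of 0.35. These were Ly6d, Ebf1, the factor that commits cells to the B lineage, from 10.8 to 21.9 CPM (2.03-fold, 1.64 to 2.53), and Blnk, an adaptor of the B cell receptor, from 8.10 to 15.7 CPM (1.94-fold, 1.51 to 2.50). Ebf1 was concentrated as well, with 74.3% and 33.7% of its UMIs in 10 cells, and its ratio was 0.49 when every cell weighed the same, short of 1.5-fold. Of 8 T lineage genes compared, 2 rose, Ccr9 and Ets1, and the median was 0.10. Ptcra, the pre-T cell receptor chain and a Notch target of thymocytes, was below the minimum level at 3.62 and 6.14 CPM, with all and 87.6% of its UMIs in 10 cells. Genes of stem cells (16 compared) had a median of -0.02 and genes of myeloid progenitors (17 compared) of -0.04, with 1 lower gene, Txnip, in the former and 1 higher gene, Ly86, in the latter. Fewer cells of a kind and less RNA per cell cannot be told apart in such sums.

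**Figure D3:**
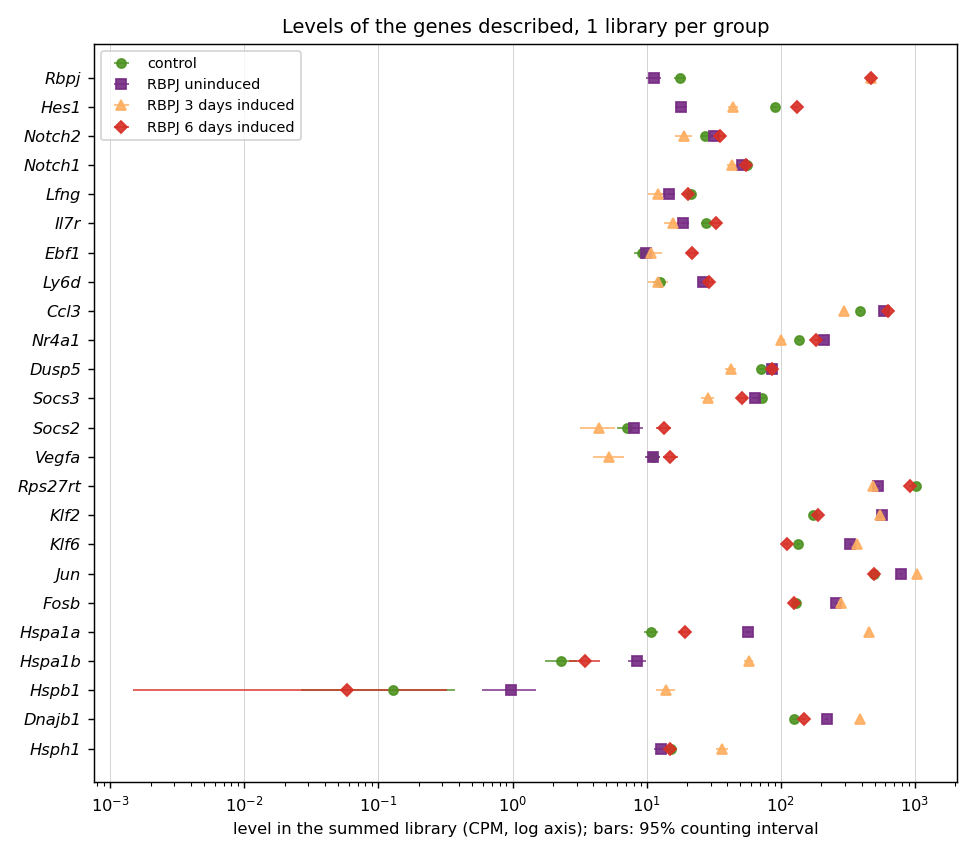
Levels of 24 of the named genes in the 4 libraries (CPM on a log axis, 95% counting intervals). Rbpj coincides at 3 and 6 days at 472 and 474 CPM, Klf2, Klf6 and Fosb pair uninduced with 3-day and control with 6-day cells, and Hspa1a, Hspa1b and Hspb1 are highest at 3 days.

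The heat shock and chaperone list had the most genes lower at 6 days. Of its 27 compared members 8 fell, 0 rose and 26 were below 0, with a median of -0.36. Hspa1a (ENSMUSG00000091971; GRCm38 chr17:34969190-34972156, minus strand), the inducible 70-kilodalton chaperone, was at 10.8 CPM in control, 57.0 CPM in uninduced, 451 CPM (438 to 464) in 3-day and 19.3 CPM (17.2 to 21.4) in 6-day cells. The 6-day level was 0.0427 of the 3-day level (0.0381 to 0.0477) and lay above that of control (9.51 to 12.2). After thinning, a Hspa1a UMI was found in 61.6% of 3-day cells (58.7 to 64.6) and in 4.80% at 6 days (3.84 to 5.91), with 3.47% in control and 12.8% in uninduced cells; unthinned shares at 3 and 6 days were 69.7% and 6.45%. Hspa1b, its neighbouring copy, fell from 57.6 to 3.45 CPM, and Hspb1, the small heat shock protein of 27 kilodaltons, from 13.9 CPM (146 UMIs) to 0.0585 CPM (1 UMI), a ratio of 0.00421 (0.000106 to 0.0238). For Hspb1, 45.0% of the transcript end occurs also in the pseudogene Hsp25-ps1, so its reads may be split.

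Co-chaperones fell less. Dnajb1, which stimulates the 70-kilodalton chaperones, fell from 389 to 148 CPM, with 126 CPM in control and 220.2 CPM in uninduced cells. Hsph1, their nucleotide exchange factor, fell from 36.4 CPM (32.8 to 40.2) to 14.8 CPM (13.0 to 16.7), with 15.1 CPM in control and 12.8 CPM in uninduced cells. For both genes the 3-day library was the highest of the 4. Hsp90aa1, the inducible 90-kilodalton chaperone, fell from 1099.6 to 616 CPM. The mitochondrial chaperonins Hspd1 and Hspe1 had log2 ratios of -0.52 and -0.25, short of the threshold, and Hsf1, the heat shock factor itself, 0.07. Of 18 compared genes of the endoplasmic reticulum chaperones and unfolded protein response, 1 fell: Hspa5, also known as BiP, from 328 to 181 CPM. In RNA outside cells (barcodes of 10 to 100 UMIs), Hspa1a was measured at 637 CPM at 3 days and 68.8 CPM at 6 days, against 20.3 CPM in control, and its part in the cell levels was not tested.

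A further set of early-response transcription factors was lower at 6 days, in a different pattern over the libraries. Klf6 and Klf2 are zinc-finger factors tied to quiescence and to immediate responses. Klf6 was at 133 CPM in control, 330.2 CPM in uninduced, 373 CPM (361 to 385) in 3-day and 111 CPM (106 to 116) in 6-day cells, and Klf2 at 172, 571, 552 (538 to 566) and 189 CPM (182 to 195). The 6-day levels were 0.297 (0.281 to 0.314) and 0.342 (0.327 to 0.357) of the 3-day levels. For both, uninduced and 3-day cells were high and control and 6-day cells low. Klf4, a related factor, had the same order of pairs, at 35.0, 78.0, 66.2 and 34.2 CPM.

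Of 19 AP-1 and early growth response genes compared, 5 fell and 2 rose, with a median of -0.06. Jun, the core AP-1 subunit, was at 499 CPM in control, 792 CPM in uninduced, 1038 CPM (1019 to 1058) in 3-day and 498 CPM (487 to 508) in 6-day cells. Fosb, a partner of Jun, was at 129, 259, 279 and 126 CPM, and Fos at 1007, 1726, 1344 and 856 CPM in the same order. Jund and Atf3, further AP-1 and stress-induced factors, had log2 ratios of -0.65 and -0.82. The control and 6-day libraries again held the lower levels of these genes. Junb and Egr1, induced by the same stimuli in most cells, had ratios of 0.04 and -0.09, and Zfp36l2, an mRNA-destabilising protein of lymphoid progenitors, rose from 239 to 392 CPM (1.64-fold, 1.57 to 1.72). Other members of the early-response group were Rhob, a small GTPase, which fell from 160.2 to 77.3 CPM, and Dusp1, a phosphatase of MAP kinases, which fell from 394 to 213 CPM. Tsc22d3 and Txnip, known glucocorticoid-responsive genes, fell from 60.8 to 37.3 CPM and from 67.9 to 42.3 CPM, the latter with a ratio of -0.49 when every cell weighed the same, short of 1.5-fold. With Dusp1 they were the 3 lower genes of 9 compared on the glucocorticoid and clock list, of which 0 were higher, 5 were above 0 and the median was 0.03.

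Of 14 feedback genes of MAP kinase and cytokine signalling compared, 6 were higher at 6 days, 1 was lower and 7 did not pass, with 11 above 0 and a median of 0.43. Dusp5, a phosphatase of ERK, was at 71.6 CPM in control, 85.4 CPM in uninduced, 42.5 CPM (38.6 to 46.6) in 3-day and 86.3 CPM (82.0 to 90.8) in 6-day cells, a 2.03-fold rise (1.83 to 2.26). Socs2, an inhibitor of JAK-STAT signalling, rose from 4.38 CPM (3.21 to 5.84) to 13.4 CPM (11.7 to 15.3), and Socs3, of the same family, from 28.5 to 51.2 CPM. For Dusp5 and Socs3 the 3-day library was the lowest of the 4. Spry2, an inhibitor of receptor tyrosine kinase signalling, rose from 11.7 to 20.6 CPM, and Osm, a cytokine of the interleukin-6 family, from 7.33 to 12.5 CPM, with a ratio of 0.43 after thinning, short of 1.5-fold. Of the NR4A, KLF and other activation factors, 5 of 17 rose and 4 fell, with a median of 0.27. Nr4a1, an orphan nuclear receptor induced by antigen and cytokine receptors, was at 137, 209, 101 (94.9 to 107) and 184 CPM (177 to 190.2) in control, uninduced, 3-day and 6-day cells, and Vegfa, an angiogenic factor, rose from 5.24 to 15 CPM (2.87-fold, 2.14 to 3.91).

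Chemokines went both ways. Ccl3, an inflammatory chemokine, was at 391 CPM in control, 586 CPM in uninduced, 296 CPM (285 to 306) in 3-day and 633 CPM (622 to 645) in 6-day cells, a 2.14-fold rise (2.06 to 2.23). Ccl4, its neighbour and close relative, rose from 349 to 532 CPM (1.53-fold, 1.47 to 1.59), and Tnf from 32.2 to 50.8 CPM. Uninduced and 6-day cells were the higher pair for both chemokines. Of 18 genes of the NF-kB response, 4 rose (Ccl3, Ccl4, Tnf and Nfkbid), 0 fell and the median was 0.13, while the inhibitor Nfkbia, a sensitive target of the pathway, had a ratio of 0.11. Tnf was at 0.50 when every cell weighed the same, short of 1.5-fold.

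Ccl5, a chemokine of T and NK cells, was lower at 6 days, at 72.3 and 22.9 CPM, but 10 cells held 76.3% of its UMIs at 3 days and 86.4% at 6 days. Of 37 interferon response genes 2 fell, 1 rose and the median was -0.12. The falls rested on few cells: Rsad2, an antiviral enzyme, was at 17.2 and 8.95 CPM with 51.9% and 28.1% of UMIs in 10 cells, and Ifit1 at 18.7 and 9.83 CPM with 62.8% and 31%. Without the 10 highest cells, their ratios were -0.32 and -0.03, and that of Cxcl10, an interferon-induced chemokine, -0.11. That setting tends to raise ratios, as given above, and its part in these values was not tested. Irgm1, an interferon-induced GTPase, rose from 12.5 to 22.5 CPM (1.80-fold, 1.47 to 2.21). Genes for MHC class II had a median of 0.03, with Cd74, the invariant chain, at 83.8 and 113 CPM (1.35-fold, 1.25 to 1.47).

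**Figure D4:**
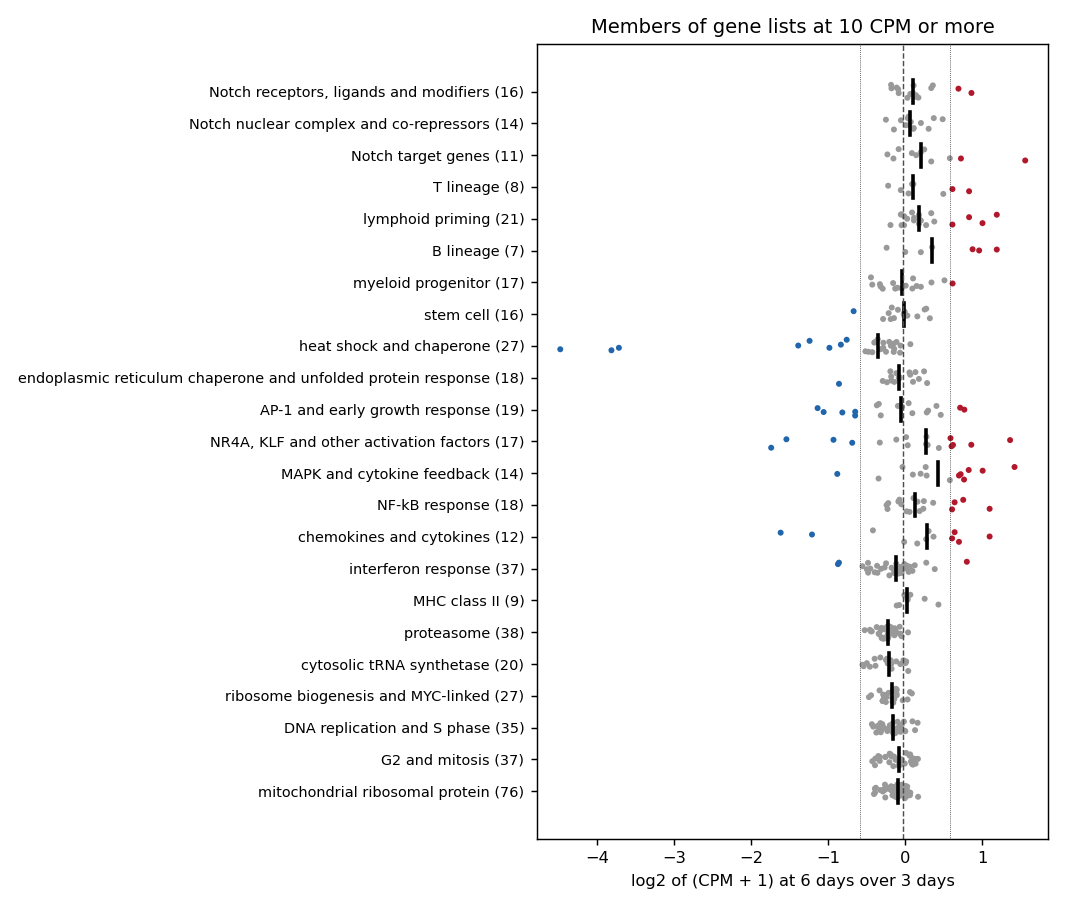
Log2 ratio of CPM plus 1 at 6 over 3 days for each compared member of 23 gene lists (number compared in brackets); red and blue points passed 1.5-fold, black bars are list medians and the dashed line is the median of all genes (-0.02). The heat shock list reaches -4.48, the MAPK and cytokine feedback list has the median of 0.43, and proteasome genes lie between -0.53 and 0.04.

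Housekeeping programmes shifted by less than 1.5-fold. In the proteasome list, which covers subunits and a few relatives, 37 of 38 compared genes were below 0 and 0 passed the threshold, with a median of -0.22 against 55.0% of all genes below 0. Cytosolic tRNA synthetases, which charge tRNAs, had a median of -0.21 (16 of 20 below 0), genes of ribosome biogenesis -0.17 (24 of 27) and genes of DNA replication and S phase -0.16 (31 of 35), none of them past 1.5-fold. For G2 and mitosis the median was -0.08 (25 of 37 below 0). Mitochondrial ribosomal proteins stood at -0.10 (65 of 76 below 0). On scaling to a total without ribosomal, mitochondrial, heat shock and AP-1 genes, an alternative added after the data were seen, the median of all genes moved to 0.01.

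A separate group of higher genes shares much of its transcript ends with other genes, and reads from the shared stretches cannot be told apart. The shares run from 52.8% (Erdr1) to 100% (Rpl27-ps3), so not all of the group are near-identical copies. Transcript ends were searched only for the 178 named or called genes. The share over all genes compared is therefore not known, and the counts have no background. Of the 92 higher genes, 13 share at least 50% of the 31-base words of their transcript ends with another gene, against 0 of the 45 lower genes. These include Rps27rt, a retrocopy of a ribosomal protein gene, at 1021 CPM in control, 535 CPM in uninduced, 490.2 CPM in 3-day and 918 CPM in 6-day cells, and Rpl36-ps3, a pseudogene, at 214, 114, 115 and 209 CPM. Of these 13 genes 8 were also at least 1.5-fold higher in control than in uninduced cells. The mitochondrial mt-Atp8, whose gene overlaps mt-Atp6, followed the same order at 310.4, 148, 159 and 303 CPM, while mt-Atp6 had a ratio of -0.03 between 6 and 3 days. All 4 ribosomal protein entries that passed were copies of this kind, and the median of the 98 ribosomal protein entries was 0.02. No source used here says how reads of such copies were assigned.

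The control and uninduced libraries share no library with the comparison of 6 and 3 days and were set beside it. Between control and uninduced cells, 54 of 7224 genes were at least 1.5-fold higher in control (0.748%) and 36 lower (0.498%). Of the 92 genes higher at 6 days 16 were also higher in control than in uninduced cells (17.4% of the former and 29.6% of the latter), among them Hes1, Dennd5b, Wdr89 and several of the sequence-sharing copies. Of the 45 genes lower at 6 days 13 were also lower in control (28.9% and 36.1%): Klf2, Klf4, Klf6, Jun, Jund, Fos, Fosb, Atf3, Dusp1, Rhob, Dnajb1, Hspa1a and Ccl5. The labels give no batch for the libraries, so a batch shared by control and 6-day or by uninduced and 3-day libraries cannot be told apart from the groups in these overlaps. Only 3 genes went the opposite way, Ccl4, Ly6d and Nr4a1, which were higher at 6 days and lower in control than in uninduced cells. Across the 7013 genes compared in both, the Pearson correlation of the ratios was 0.239, a description over genes, which are not independent replicates and share their library's depth.

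The same contrast was taken in cells with and without detected Rbpj. Cells with 3 or more Rbpj UMIs numbered 343 at 3 days and 544 at 6 days, with Rbpj at 1240 and 1246 CPM, and cells with 0 Rbpj UMIs and at least 4700 UMIs in all numbered 539 and 841. Between them, 217 and 404 cells held 1 or 2 Rbpj UMIs and were left out of both. Of the 92 higher genes 90 were above 0 in Rbpj-rich cells (73 past 1.5-fold) and 92 in cells without Rbpj UMIs (77 past), and all 45 lower genes were below 0 in both (37 and 36 past). These cells make up most of the libraries that defined the genes, so the counts describe where the differences lie and are no second measurement.

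Hes1 in Rbpj-rich cells measured 18.3 CPM (14.3 to 23.2) on day 3 and 78.3 CPM (71.4 to 85.7) on day 6, a log2 ratio of 2.04, and in cells without Rbpj UMIs at 46.7 CPM (40.4 to 53.7) and 159 CPM (150 to 169), a ratio of 1.75. Hspa1a fell in both, from 385 to 25.7 CPM and from 488 to 13.8 CPM. Klf2 fell from 400.4 to 152 CPM in Rbpj-rich cells and from 602 to 180 CPM in the others. These genes therefore differed between days in cells of both kinds. Lfng was at 13.0 and 14 CPM in Rbpj-rich cells and at 11.1 (8.14 to 14.7) and 23.1 CPM (19.6 to 27.2) in cells without Rbpj UMIs, and Ccr9 at 4.79 and 6.09 CPM against 9.20 and 21.6 CPM. Ccl5 fell from 125.7 to 15.8 CPM in Rbpj-rich cells and from 36.6 to 16.7 CPM in the others. Whether these ratios differ between the cell classes was not tested.

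**Figure D5:**
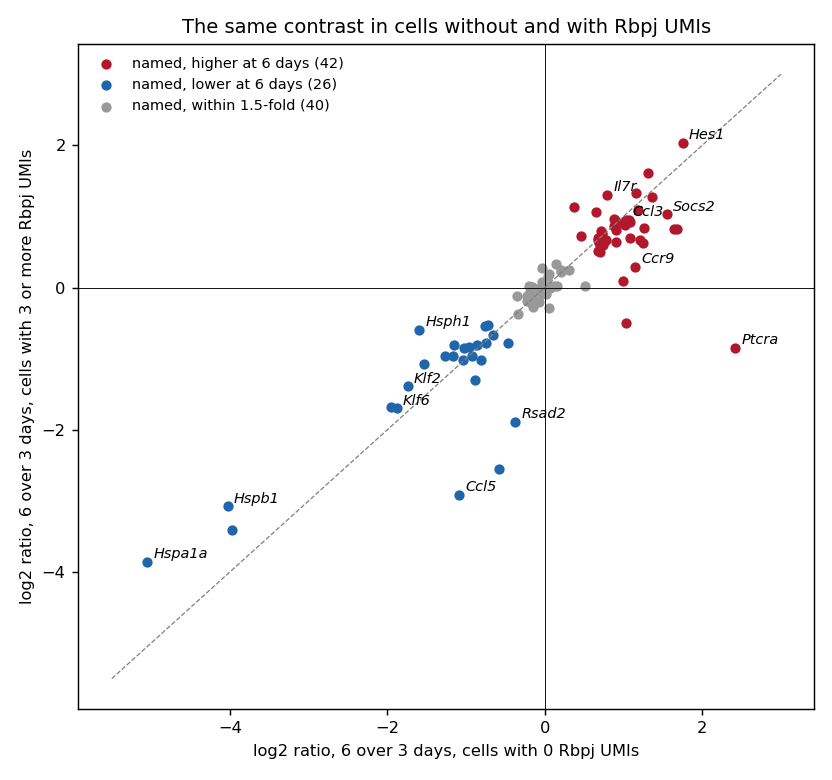
Log2 ratio at 6 over 3 days of the 108 named genes in cells with 0 Rbpj UMIs (horizontal) and with 3 or more (vertical); the dashed line marks equal ratios. Most points lie near it, Hes1 stands at 1.75 and 2.04, Ccl5 at -1.08 and -2.92, and Hspb1 has 0 UMIs at 6 days in both classes, so its place depends on the pseudocount.

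The differences were also described within groups of like cells. These groups are parts of the libraries that defined the genes, so their counts are no second measurement. Cells of all libraries were clustered without the Notch target, heat shock, AP-1, activation, feedback, cell cycle, ribosomal, mitochondrially encoded and sex-linked genes and without Rbpj, and 10 of 18 clusters held at least 50 cells of both libraries. Fewer than 3 of the fixed markers of any cell type were among the 10 leading genes of each of these clusters, so they were left unnamed. Rbpj itself was not level in every cluster: its log2 ratio was above 0 in 6 of 10, between -1.08 and 1.06. In cluster 1 it rose from 30.2 to 64 CPM, and in cluster 5 it fell from 187.5 to 88 CPM. Hes1 was higher at 6 days in 10 of 10 clusters, with log2 ratios of 0.46 to 2.70, and Dusp5, Nr4a1 and Zfp36l2 were too. Klf2, with -2.03 to -1.69, Klf6, with -2.34 to -1.70, and Hspa1a, with -6.11 to -3.14, were below 0 in 10 of 10. Il7r, Ccl3, Notch2 and Vegfa were above 0 in 9 of 10. The exception for Notch2 was cluster 6, with Notch2 and Spry2 among its leading genes, where it fell from 175.9 to 135.5 CPM. Spry2 fell there from 82.8 to 54.0 CPM and was above 0 in 7 of 10. The part of this cluster in the rises of both genes was not tested. Ebf1 was above 0 in 8 of 10, between -0.82 and 2.41, and Ccl5 ranged from -5.54 to 6.58. Ly6d, held by few cells, was above 0 in 10 of 10, between 0.04 and 3.11, but in some clusters on almost no UMIs. From 3 to 6 days it went from 0 to 0.523 CPM in cluster 1 and from 0 to 0.497 CPM in cluster 2. In cluster 7 it went from 0 to 1.09 CPM, and in cluster 4 from 3.05 to 3.15 CPM. The direction of Ly6d in these clusters cannot be told from counting error. For the other genes named as 10 of 10, the order of the levels was the same in all 10 clusters, in some by little. Nr4a1 went from 18.6 to 20.4 CPM in cluster 13, and Dusp5 from 28.8 to 31.5 CPM in cluster 5. In such cases the direction cannot be told from counting error either. For the rest it varied. Cluster 3, with Ly6d among its leading genes, was among the 10, and there Ly6d went from 26.8 to 56.8 CPM. Other clusters led by Ccr9 (9 and 17), by Ly6d and Il7r (11) or by Ebf1 (16) were not among the 10. At 3 days clusters 9, 11, 16 and 17 held 36, 36, 5 and 5 cells. Because Ccr9, Ly6d, Il7r and Ebf1 helped to form these clusters, their sizes are not compared between days. The part of such cells in the rises of these genes was not tested.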

How the data were processed

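Per the labels' protocols, LMPPs were sorted by flow cytometry and their RNA captured in 10x Genomics droplets for sequencing (NextSeq 500); the genome mm10 and Seurat are named without a role or version, per the submitters' processing notes, while aligner and annotation are not given in the sources used here. Per library, the authors deposited whole UMI counts per gene and barcode, not normalized, and a table of log2 values per cell, which are scaled within each library and were used only to define the cells. The kept cells' counts were summed per library (10499558 UMIs at 3 days, 17090136 at 6 days) and scaled to CPM; ratios are log2 of CPM plus a pseudocount of 1, folds are ratios of CPM, and a gene was called at 1.5-fold. Levels have exact Poisson intervals, folds conditional exact ones and shares Clopper-Pearson ones, which cover counting error only. No test across cells or genes was made, because each group has 1 library. Doublets were kept, since no caller was run; an alternative left out the 5% of cells with most UMIs.

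The genes named were the 15 highest and 15 lowest ratios apart from haemoglobin, sex-linked and antigen receptor segment genes, from each of 44 gene lists at most 4 members in either direction (2 of the highest level where none passed), the core Notch and progenitor genes, and genes known from earlier results to differ between uninduced and 3-day cells; further genes in the text, such as Hsp90aa1, Spen, Wdr89, Dennd5b and mt-Atp6, were chosen after their values were seen. The comparison, its lists and its named genes were chosen with earlier results of these data known. Some genes are on several lists; Ly6d, for example, counts as a B lineage, dendritic cell and lymphoid priming gene. The comparison code was tested on simulated data. Clusters used 2000 variable genes, 30 principal components, 15 neighbours and the Leiden method at resolution 1.0 (leidenalg 0.10.2). Transcript ends were the last 500 bases in GENCODE vM21 (GRCm38), which matches mm10; promoters came from RefSeq (GRCm38.p6). Python 3.11.15, numpy 2.4.6, scipy 1.17.1 and pandas 2.3.3 were used, with edgeR 4.0.16 and DESeq2 1.42.0 for alternative scaling factors only.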

Additional observations from a re-analysis of the deposited data

Results flagged for a closer look

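Barcodes of 10 to 100 UMIs, which stand outside the cell sets and enter none of the comparisons, held Rbpj above the level of the control library: 291 CPM (235 to 357) in the 3-day library and 285 CPM (255 to 318) in the 6-day library, against 17.4 CPM in control barcodes of the same kind. They also held Hspa1a at 637 CPM (552 to 731) in the 3-day and 68.8 CPM (54.3 to 86.1) in the 6-day library, against 20.3 CPM in control. Both Hspa1a values exceed the levels in the cells of the same libraries, 451 and 19.3 CPM, while both Rbpj values lie below those of the cells, 472 and 474 CPM. Other genes described above also differed between 3 and 6 days in these barcodes. Klf2 stood at 640 and 258 CPM, Klf6 at 428 and 146 CPM and Jun at 1153 and 621 CPM. Ccl3 was at 554 and 1104 CPM, Hes1 at 34.8 and 119 CPM and Ccl5 at 101 and 23.2 CPM. How much of the levels of all these genes in cells came from RNA outside cells was not tested.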

How the results depend on the processing

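No paired analysis was possible because there is only 1 library in each group. With a pseudocount of 5 CPM, 58 genes were higher at 1.5-fold and 2 at 2-fold. With a minimum of 5 CPM, 152 were higher and 73 lower, and 20 higher at 2-fold; with a minimum of 20 CPM, 56, 28 and 6. Without a minimum, 322 were higher and 180 lower, 28 and 26 at 2-fold. With cells thinned to 4700 UMIs, 157 were higher, 84 lower and 19 higher at 2-fold. The minimum changes how many low-level genes are compared, thinning how many UMIs each rests on, and a larger pseudocount shrinks their ratios. Without the 10 highest cells of each gene, a setting that tends to raise ratios as given above, 19 were higher at 2-fold. The log2 ratio of Rbpj, 0.01, was -0.0677 with all cells of the authors and 0.0691 without the 10 highest cells. The other 57 values of these results moved less. Of the 92 higher and 45 lower genes, 80 and 37 were also called after thinning, and 92 and 44 with TMM scaling. Cd9 had 0.0086 with all cells in place of -0.62. Of the other values for named genes 1527 moved little and 77 moved more, and of those for list medians 647 and 13. List medians near 0 (megakaryocyte, stem cell, MHC class I, transferrin and iron) changed sign with the scaling. Low-level genes rest on few UMIs (Ccr9 on 105 and Vegfa on 55 at 3 days), which limits what can be told for them.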

Other observations

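A few genes without a place on the lists above were among the highest ratios. Mn1, a transcriptional co-factor of haematopoietic progenitors, was at 58.1 CPM in control, 46.9 CPM in uninduced, 30.8 CPM (27.5 to 34.3) in 3-day and 60.6 CPM (56.9 to 64.4) in 6-day cells. Its ratio was above 0 in 10 of 10 clusters, in cluster 13 by little, at 33.3 and 34.4 CPM. Sdc4, a heparan sulphate proteoglycan of the cell surface, was at 8.19 and 17.8 CPM, and Lrrc8a, a subunit of the volume-regulated anion channel, at 6.10 and 14 CPM at 3 and 6 days. AA467197 rose from 19.2 to 43.4 CPM and Ppp1r16b, a regulatory subunit of protein phosphatase 1, from 4.29 to 10.6 CPM. For Mn1, AA467197 and Ppp1r16b the 3-day library was the lowest of the 4 and the 6-day library the highest, in part with overlapping intervals. At 6 days Mn1 overlapped control (55.1 to 61.3). At 3 days AA467197 (16.7 to 22.1) overlapped uninduced cells (20.8 to 25.0), as did Ppp1r16b (3.13 to 5.73 and 5.48 to 7.74). Among the lowest ratios, Cdk5rap1, an enzyme that modifies mitochondrial tRNAs, was at 4.36 CPM in control, 8.38 CPM in uninduced, 10.9 CPM (8.96 to 13.0) in 3-day and 2.75 CPM (2.02 to 3.66) in 6-day cells.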
